A study of Mus musculus with 6 samples.

Results

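Blood coagulation and fibrinolysis were followed through 9 genes of mouse M2 macrophages (Mφs), out of 41549 genes in the count table. They were F3, F7, F10, F13a1, F2rl2, Thbd, Plau, Plaur and Serpinb2. They were picked by symbol, with the counts of the same comparison already known, so their differences between groups are given below as a description and were not tested as a list. Messenger RNA was sequenced from wild type bone marrow-derived Mφs of young adult C57Bl/6 N mice. Naïve Mφs were transfected with an oligonucleotide antisense to 5′tRF-Glu(CTC), which is cut from the 5′ part of tRNA-Glu (αGlu), or with a control antisense (Ctr). All cells were then polarized with IL-4 and IL-13, so both groups share the transfection and the M2 stimulus. Each group had 3 libraries. For primary cells the study's reporting notes count each replicate as a preparation from a separate animal, and the labels do not name the animals. Libraries of mRNA do not hold the fragment, and how well it was blocked is not analysed here.

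Coagulation starts when tissue factor on a cell surface binds factor VIIa and activates factor X, which leads to thrombin and a fibrin clot. Thrombin also signals to cells through protease-activated receptors, and thrombomodulin turns it toward the activation of the anticoagulant protein C. In fibrinolysis, urokinase bound to its receptor activates plasminogen, and serpins restrain the activators. Mφs can make tissue factor, urokinase, its receptor and several clotting factors, whereas most plasma clotting proteins come from the liver.

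The antisense and the tRNA fragment sequence it was designed against are shown because they define the αGlu group. Capitals in the target mark the 20 bases, starting at position 2 from its 5′ end, to which the antisense is the exact reverse complement.
Antisense: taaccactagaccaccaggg
Target: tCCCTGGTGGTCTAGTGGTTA

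Total exon counts were 17912831 to 30386653 per library, and 3 counts, taken as the limit of detection, corresponded to 0.0944 to 0.172 CPM (counts scaled per library to the normalized library size). These limits and the intervals below cover counting error only. The αGlu 1 library stood apart from its group. Across the 11933 genes tested, its log2 CPM correlated with αGlu 2 and αGlu 3 at a Pearson r of 0.929 and with the Ctr libraries at 0.966 to 0.982, whereas αGlu 2 and αGlu 3 correlated with each other at 0.992. These correlations are across genes, which are not independent replicates. Each fold change of a member is therefore given with and without αGlu 1. The Mφ label held in all libraries, since 7 of 7 Mφ markers averaged above 1 CPM and summed to 11811 to 13372 CPM in Ctr and 12573 to 18531 CPM in αGlu. The M2 label held in part. The 5 markers of the IL-4 and IL-13 response summed to 2789 to 4492 CPM in Ctr and 3998 to 6924 CPM in αGlu, but its members went in both directions. Retnla stood at 245 to 539 CPM in Ctr, 101 CPM in αGlu 1, and 0.0315 and 0.0367 CPM in αGlu 2 and 3, below the limit of detection, and Mgl2 at 66.3 to 87.8 CPM in Ctr and 10.6, 0.503 and 2.35 CPM in αGlu 1, 2 and 3. Arg1 stood at 24.3 to 45.1 CPM in Ctr and 23.4, 1885 and 1790.4 CPM in αGlu, Mrc1 at 771 to 948 CPM in Ctr and 840, 1511 and 2377 CPM in αGlu, and Chil3 overlapped between groups. Of other cells that make clotting proteins, markers of megakaryocytes, platelets and hepatocytes were low, whereas not all endothelial markers were. Of 8 megakaryocyte and platelet markers 2 averaged above 1 CPM, with sums of 4.68 to 11.04 CPM in Ctr and 5.67 to 6.08 CPM in αGlu. For hepatocytes 4 of 5 markers, Alb, Ttr, Serpina1c and Cps1, had 0 reads. Endothelial markers summed to 18.3 to 48.2 CPM in Ctr and 46.1 to 58.7 CPM in αGlu, and 2 of 6, Kdr and Pecam1, averaged above 1 CPM. Kdr stood at 14.5 to 44.6 CPM in Ctr and 29.1 to 55.9 CPM in αGlu. Pecam1 stood at 3.27 to 3.42 CPM in Ctr and 2.41, 16.3 and 25.7 CPM in αGlu 1, 2 and 3, whereas Cdh5, Tek, Emcn and Tie1 reached at most 0.440 CPM. The part of other cell types in the results was not tested.

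F3 encodes tissue factor, the membrane receptor that starts coagulation. Its gene lies at chr3:121723537-121735048 on the plus strand (GRCm38 coordinates, GENCODE M21 annotation, as for all genes below). In Ctr 1, 2 and 3 it had 41, 36 and 17 reads, or 1.86, 1.50 and 0.788 CPM. In αGlu 1, 2 and 3 it had 1, 2 and 2 reads, or 0.0573, 0.0629 and 0.0733 CPM. All αGlu libraries lay under the limit of 3 counts and the groups did not overlap. Summed over the groups, 94 reads stood against 5, a 21.3-fold lower count in αGlu with a 95% interval of 8.81 to 67.1 (exact conditional Poisson interval). The log2 fold change was −4.30 ± 0.50 (SE) and −4.26 ± 0.62 without αGlu 1. For F3, αGlu 1 sat with the other αGlu libraries. In bulk RNA, fewer cells that express a gene and less RNA per cell cannot be told apart. F3 passed the filter on low counts only through the Ctr libraries.

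F7 encodes factor VII, the plasma protease that tissue factor binds. It was abundant in both groups, with 64.4, 70.0 and 45.5 CPM in Ctr 1, 2 and 3 and 35.9, 56.3 and 41.5 CPM in αGlu 1, 2 and 3. The groups overlapped, and the log2 fold change was −0.43 ± 0.23 with all libraries and −0.30 ± 0.21 without αGlu 1. F7 was therefore measured far above F3 throughout. On the length-adjusted TPM scale, the F7 to F3 ratio was 47.0, 63.3 and 78.4 in Ctr and 851, 1216 and 769 in αGlu, without overlap, although the αGlu ratios rest on 1 or 2 reads of F3. F10 encodes factor X, the protease that the tissue factor and factor VIIa complex activates. It stood at 68.6, 121 and 76.1 CPM in Ctr 1, 2 and 3, and at 55.1, 482 and 308 CPM in αGlu 1, 2 and 3. αGlu 2 and αGlu 3 lay above every Ctr library and αGlu 1 lay below all of them, so the groups overlapped. The log2 fold change was 1.67 ± 0.73, and 2.15 ± 0.29 without αGlu 1. The mean of αGlu 2 and αGlu 3 was 4.45-fold the Ctr mean.

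F7 and F10 lie next to each other on the plus strand of chromosome 8, at chr8:13026034-13035809 and chr8:13037308-13056676, with 1498 bp between them. Their counts took different courses in the same libraries. The F10 to F7 ratio in TPM was 0.725, 1.18 and 1.14 in Ctr 1, 2 and 3. In αGlu 1 it was 1.04, inside the Ctr range, and in αGlu 2 and 3 it was 5.83 and 5.06. Proz, the next gene after F10, had at most 5 reads in any library, and was looked up after the values had been seen.

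F13a1 encodes the catalytic A subunit of factor XIII, the transglutaminase that crosslinks fibrin, and is a gene typical of some IL-4 stimulated human monocytes and Mφs. In these mouse Mφs it was close to the limit of detection, with 7, 24 and 10 reads in Ctr 1, 2 and 3 (0.318, 1.002 and 0.464 CPM) and 19, 7 and 10 reads in αGlu 1, 2 and 3 (1.09, 0.220 and 0.367 CPM). The libraries of both groups interleaved, and αGlu 1 was the highest of the 6. Its log2 fold change was −0.18 ± 0.73 and −1.04 ± 0.61 without αGlu 1, and the sign turned when Ctr 2, αGlu 2 or αGlu 3 was left out instead. The gene spans chr13:36867178-37050244 on the minus strand.

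F2rl2 encodes protease-activated receptor 3 (PAR3), a thrombin receptor that in mouse platelets serves as a cofactor for another receptor of the family. It had 103, 72 and 77 reads in Ctr 1, 2 and 3 and 13, 12 and 18 reads in αGlu 1, 2 and 3, which are 4.68, 3.01 and 3.57 CPM against 0.745, 0.377 and 0.660 CPM. All αGlu libraries lay below all Ctr libraries, αGlu 1 included. The Ctr mean was 6.31-fold the αGlu mean, and the log2 fold change was −2.67 ± 0.34 and −2.86 ± 0.37 without αGlu 1. F2rl2 (chr13:95696853-95702739, plus strand) overlaps Iqgap2, which is read from the opposite strand and had 2072 to 3479 reads. The exons of the pair do not overlap in the annotation. The libraries were made with a stranded kit, but the counting was not stated to use the strand.

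Thbd encodes thrombomodulin, the thrombin receptor that promotes activation of protein C. In Ctr 1, 2 and 3 it stood at 7.35, 7.31 and 7.93 CPM, which was the smallest SD of the 9 genes on the log2 scale. In αGlu 1 it was 8.14 CPM, above every Ctr library, and in αGlu 2 and 3 it was 3.08 and 3.45 CPM, below every Ctr library. The log2 fold change was −0.64 ± 0.39, and −1.21 ± 0.15 without αGlu 1. Procr, which encodes the endothelial protein C receptor that presents protein C to thrombomodulin-bound thrombin, went the other way in the same libraries. It stood at 23.1, 49.4 and 25.2 CPM in Ctr and 22.8, 155 and 87.3 CPM in αGlu. The Procr to Thbd ratio in TPM was 5.76, 12.4 and 5.82 in Ctr, 5.14 in αGlu 1, and 92.1 and 46.5 in αGlu 2 and 3. The endothelial marker Pecam1 was also higher in αGlu 2 and 3 than in the other libraries (values above). Kdr was not, at 29.1 and 30.5 CPM in αGlu 2 and 3, inside the Ctr range of 14.5 to 44.6 CPM. The other endothelial markers reached at most 0.440 CPM in any library. The part of endothelial cells in the Procr and Thbd values was not tested. Thbd is at chr2:148404466-148408188 on the minus strand.

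Plau encodes urokinase, the protease that converts plasminogen to plasmin. It stood at 74.3, 57.9 and 79.3 CPM in Ctr 1, 2 and 3 and at 55.6, 25.7 and 27.7 CPM in αGlu 1, 2 and 3. The groups did not overlap, but αGlu 1 missed the lowest Ctr library by little. The log2 fold change was −0.96 ± 0.32, and −1.40 ± 0.15 without αGlu 1. Plaur encodes the urokinase receptor, which holds urokinase at the cell surface. It stood at 115, 81.1 and 78.7 CPM in Ctr 1, 2 and 3 and at 55.6, 14.6 and 10.2 CPM in αGlu 1, 2 and 3. These groups did not overlap either, and αGlu 1 lay between the Ctr libraries and the other αGlu libraries. The log2 fold change was −1.78 ± 0.66, and −2.88 ± 0.24 without αGlu 1. Receptor and ligand did not keep their proportion in αGlu 2 and 3. The Plaur to Plau ratio in TPM was 1.40, 1.27 and 0.898 in Ctr, 0.905 in αGlu 1, and 0.513 and 0.333 in αGlu 2 and 3. Plau lies at chr14:20836660-20843385 and Plaur at chr7:24462484-24475968, both on the plus strand.

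Serpinb2 encodes plasminogen activator inhibitor 2 (PAI-2), an inhibitor of urokinase that is found largely inside cells. It had 4, 2 and 3 reads in Ctr 1, 2 and 3, and 2, 1244 and 793 reads in αGlu 1, 2 and 3. This is 0.182, 0.0835 and 0.139 CPM in Ctr against 0.115, 39.1 and 29.1 CPM in αGlu. Serpinb2 was thus barely detected in Ctr and in αGlu 1, and well measured in αGlu 2 and αGlu 3 only. Counts of αGlu 2 and 3 together were 259-fold those of Ctr per normalized read (95% interval 136 to 567, exact conditional Poisson interval). The filter on low counts removed the gene, because only 2 libraries exceeded its minimum. Fitted without that filter, the log2 fold change was 7.37 ± 1.75, and without αGlu 1, where the gene passed, it was 7.94 ± 0.26. In that fit Serpinb2 passed the filter only through αGlu 2 and 3, the libraries in which it was high. The Serpinb2 to Plau ratio in TPM was at most 0.00246 in Ctr and αGlu 1, and 1.53 and 1.06 in αGlu 2 and 3, so transcripts of the inhibitor came to outnumber those of its target in those 2 libraries. The gene lies at chr1:107511423-107535478 on the plus strand. Exons of a Serpinb10 gene model on the same strand overlap it and had at most 2 reads.

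**Figure D1:**
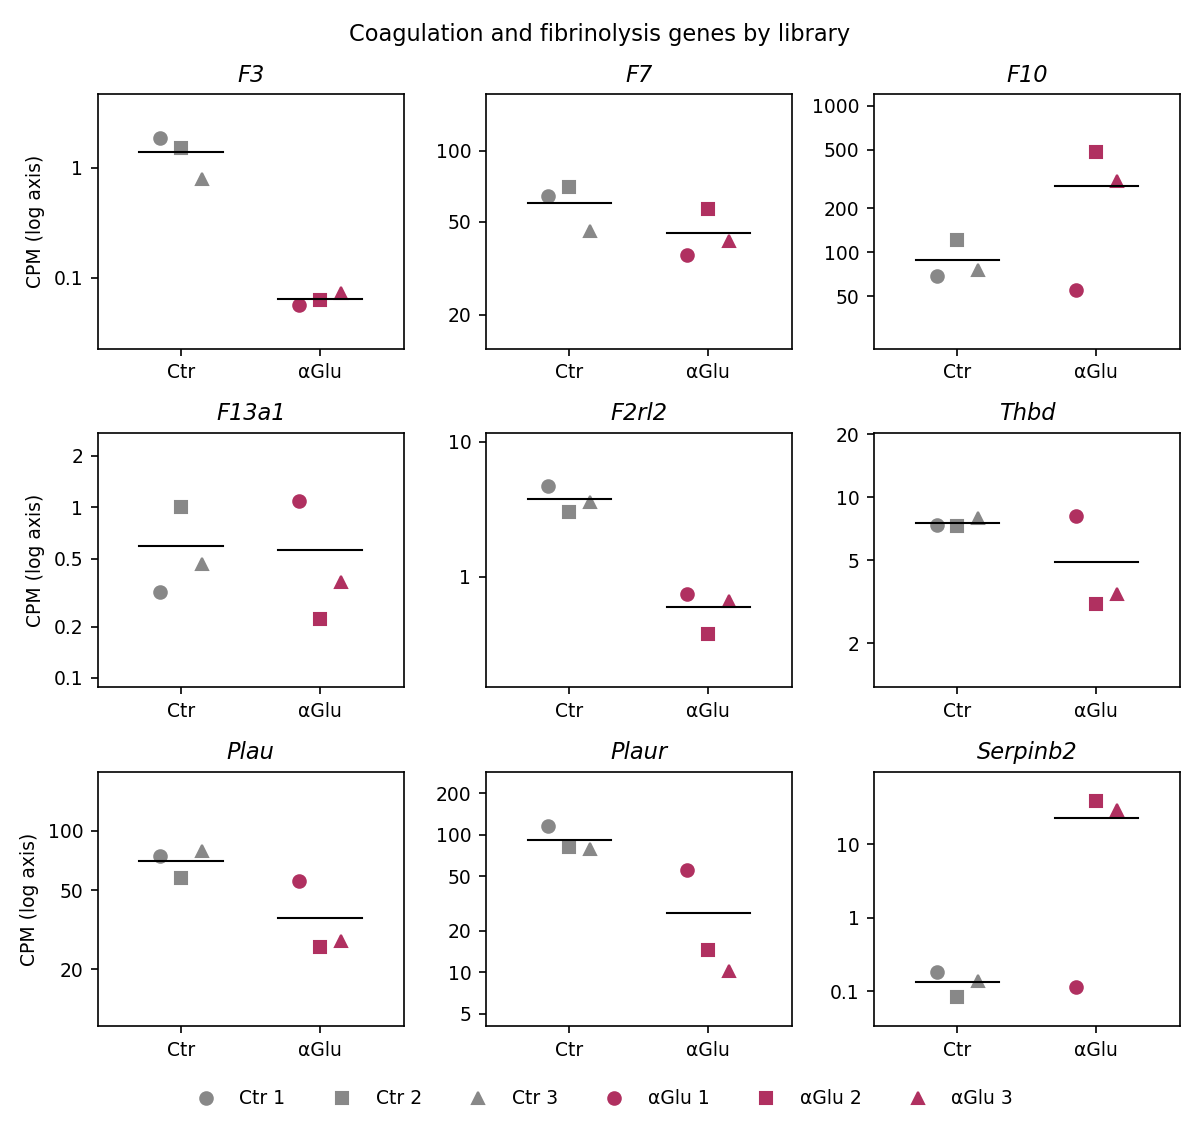
CPM (log axis) of the 9 genes in the 6 libraries, 1 panel per gene. Symbols mark libraries and horizontal lines the mean of 3 libraries, and F3, F2rl2, Plau and Plaur show no overlap between groups, whereas in the F10 and Serpinb2 panels αGlu 1 sits near Ctr.

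Across the 9 genes, 4 had groups that did not overlap, all lower in αGlu (F3, F2rl2, Plau and Plaur), against 30.2% of all genes tested (15.9% lower and 14.2% higher). Without αGlu 1 the number was 7 of 9, with F10 and Serpinb2 higher and F3, F2rl2, Thbd, Plau and Plaur lower, against a background of 65.8% (33.6% higher and 32.2% lower). In the edgeR quasi-likelihood fit over all genes and all 6 libraries, 0 of the 8 members tested were called at an adjusted p under 0.1 and a log2 fold change above 1 in size. The background was 0% of 11933 genes. At an unadjusted p under 0.05 there were 4 of 8 members, against 24.7% of all genes. Limma-voom also called 0% of genes. DESeq2 called 5 of 9 members on all libraries, namely F3, F2rl2 and Plaur lower and F10 and Serpinb2 higher, against 8.16% of genes (4.23% higher and 3.93% lower). With the replicate number as a block 0 of 8 members were called, against 0.142% of genes (0.0754% higher and 0.067% lower). Without αGlu 1 the quasi-likelihood test called 7 of 9 members, F10 and Serpinb2 higher and F3, F2rl2, Thbd, Plau and Plaur lower, against 18.6% of genes (8.05% higher and 10.5% lower). Because the members were chosen on this comparison, nothing is read from these shares.

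**Figure D2:**
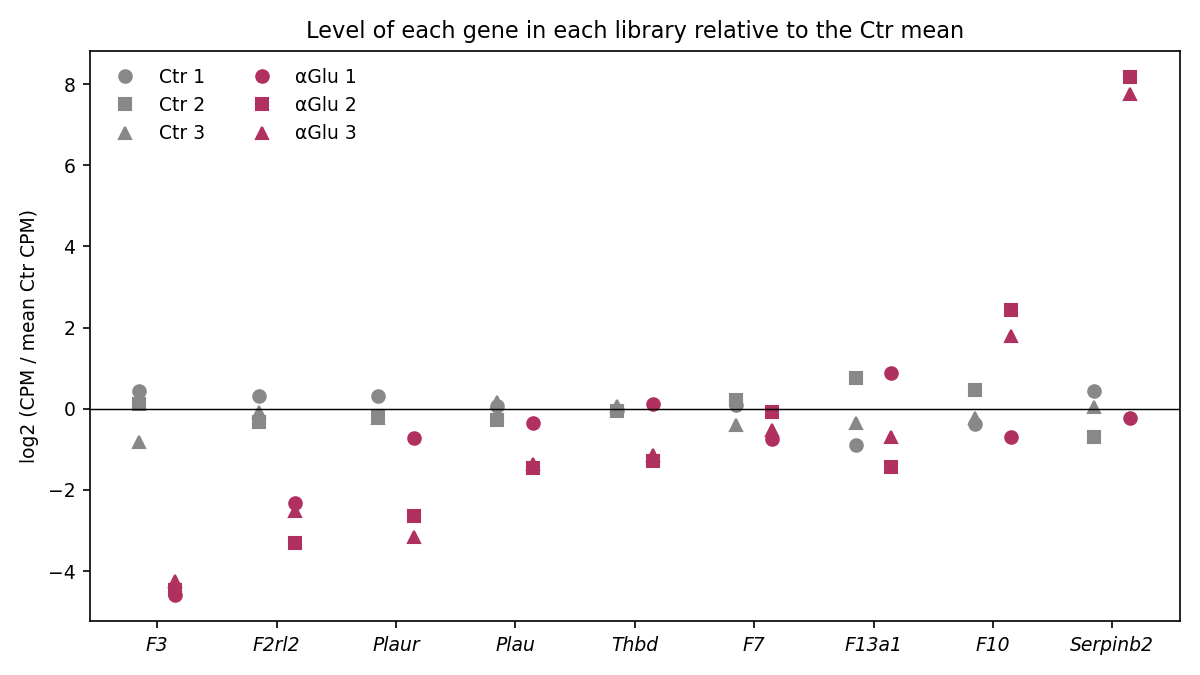
Level of each gene in each library as the log2 ratio of its CPM to the Ctr mean, with genes along the horizontal axis and symbols for libraries. αGlu 1 lies with αGlu 2 and 3 for F3 and F2rl2, between them and Ctr for Plaur and Plau, and within or near the Ctr libraries for Thbd, F10 and Serpinb2.

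The position of αGlu 1 thus differed between genes. For F3 its log2 ratio to the Ctr mean was −4.59, as far down as the −4.46 and −4.24 of αGlu 2 and 3. For F2rl2 the ratios of αGlu 1, 2 and 3 were −2.33, −3.31 and −2.51. Plaur gave −0.72 in αGlu 1, and −2.65 and −3.17 in the other two. For Serpinb2 αGlu 1 was at −0.23, whereas αGlu 2 and 3 were at 8.18 and 7.75.

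The order of the 9 genes by abundance is given in TPM, which adjusts for transcript length. In Ctr the highest was Plaur at 106 ± 25.3 TPM (SD, n = 3), followed by F10 at 97.7 ± 30.1, F7 at 97.4 ± 21.1 and Plau at 89.95 ± 14.8 TPM. The spreads of these 4 neighbours overlapped. Far below came Thbd at 6.10 ± 0.26 and F2rl2 at 4.54 ± 1.11 TPM, then F3 at 1.66 ± 0.68 TPM. F13a1 at 0.265 ± 0.158 and Serpinb2 at 0.174 ± 0.066 TPM were lowest, and their spreads also overlapped. In αGlu 2 and 3 the order was led by F10 at 565 and 371 TPM and F7 at 97.0 and 73.3 TPM. Serpinb2 came next at 53.4 and 40.7 TPM, ahead of Plau at 34.8 and 38.5 TPM and Plaur at 17.9 and 12.8 TPM. The same 4 genes led in αGlu 1 as in Ctr, but in another order, with Plau at 72.9, Plaur at 66.0, F10 at 62.6 and F7 at 59.9 TPM.

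Promoter sequences were compared because F3, F2rl2 and Plaur lay lower in αGlu together while Serpinb2 lay higher. RefSeq start sites gave windows of 300 bases, 250 before and 50 after the start, for 7 of the 9 genes (GRCm38.p6). Plau and Thbd had no entry. The windows shown are F3 (chr3:121723287-121723586), F2rl2 (chr13:95696670-95696969), Plaur (chr7:24462233-24462532) and Serpinb2 (chr1:107511173-107511472), in which capitals mark AP-1 motif matches. F7 (chr8:13025784-13026083) and F10 (chr8:13037058-13037357) are shown as the adjacent pair without such a match, and capitals mark a CCAAT box. All 6 windows are on the plus strand.
F3: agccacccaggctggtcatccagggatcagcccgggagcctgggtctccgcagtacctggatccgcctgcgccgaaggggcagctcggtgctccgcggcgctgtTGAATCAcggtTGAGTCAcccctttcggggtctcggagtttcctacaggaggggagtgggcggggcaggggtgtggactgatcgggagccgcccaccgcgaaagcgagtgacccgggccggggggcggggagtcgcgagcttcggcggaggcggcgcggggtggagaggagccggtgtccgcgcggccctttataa
F2rl2: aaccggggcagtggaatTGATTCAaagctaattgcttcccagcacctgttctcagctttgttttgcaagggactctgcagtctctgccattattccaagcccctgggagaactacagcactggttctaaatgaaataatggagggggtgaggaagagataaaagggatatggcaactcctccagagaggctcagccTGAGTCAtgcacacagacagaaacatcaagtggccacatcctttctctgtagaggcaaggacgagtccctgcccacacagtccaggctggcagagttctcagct
Plaur: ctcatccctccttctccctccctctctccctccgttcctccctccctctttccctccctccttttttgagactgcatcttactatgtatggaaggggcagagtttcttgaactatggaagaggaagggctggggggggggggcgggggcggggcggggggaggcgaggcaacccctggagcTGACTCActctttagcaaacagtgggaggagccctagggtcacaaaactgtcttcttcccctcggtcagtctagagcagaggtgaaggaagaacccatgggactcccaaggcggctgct
Serpinb2: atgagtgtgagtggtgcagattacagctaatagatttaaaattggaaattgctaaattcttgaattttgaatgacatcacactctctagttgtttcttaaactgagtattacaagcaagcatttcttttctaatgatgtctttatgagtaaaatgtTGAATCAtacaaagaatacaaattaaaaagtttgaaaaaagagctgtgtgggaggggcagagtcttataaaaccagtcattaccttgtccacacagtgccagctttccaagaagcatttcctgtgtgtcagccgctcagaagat
F7: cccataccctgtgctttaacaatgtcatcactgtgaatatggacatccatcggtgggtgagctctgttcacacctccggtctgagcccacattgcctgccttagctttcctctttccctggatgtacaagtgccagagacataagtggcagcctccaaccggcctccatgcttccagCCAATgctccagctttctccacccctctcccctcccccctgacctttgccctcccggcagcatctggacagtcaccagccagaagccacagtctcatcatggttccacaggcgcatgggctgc
F10: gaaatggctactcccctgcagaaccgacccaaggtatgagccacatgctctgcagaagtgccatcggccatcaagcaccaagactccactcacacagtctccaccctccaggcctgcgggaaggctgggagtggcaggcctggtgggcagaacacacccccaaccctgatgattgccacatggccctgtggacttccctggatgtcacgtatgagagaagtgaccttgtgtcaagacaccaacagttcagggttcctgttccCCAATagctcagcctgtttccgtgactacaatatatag

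The AP-1 motif, TGANTCA searched on both strands, was found in 4 of the 7 members with a window and in 7.81% of all 32851 promoters of that length. The first counts genes with a match in any of their windows and the second is a share of windows. The members were chosen on the comparison of the groups, so nothing is read from the difference. F3 held TGAATCA at base −146 and TGAGTCA at −135 from its start. F2rl2 held TGATTCA at −233 and TGAGTCA at −54, Plaur TGACTCA at −69 and Serpinb2 TGAATCA at −94. None of these matches overlapped a match of another motif searched. F7, F10 and F13a1 held no AP-1 match in their windows. The genes with a match were lower (F3, F2rl2 and Plaur) as well as higher (Serpinb2) in αGlu 2 and 3. The other motifs, also searched on both strands, were TATAAA (in 13.6% of all promoters), CCAAT (37.4%), the Sp1 motif GGGCGG (35.7%), the cyclic AMP response element TGACGTCA (1.79%), the EGR motif GCGNGGGCG (5.55%), the C/EBP motif TTGCNCAA (2.94%) and the NF-κB (5.56%) and STAT6 (6.95%) motifs. F3 held 3 Sp1 matches and 70.3% G and C, Plaur 3 Sp1 matches and an EGR match that overlaps them, and 59.3%, and Serpinb2 a TATAAA at −29 and 35.3%, against a median of 52.7% over all promoters. F3 also held a TATAAA match on the minus strand at 44, Plaur an NF-κB match at 18 and Serpinb2 a CCAAT match at −210. F13a1, which has 2 RefSeq start sites, held a CCAAT match at −244 of one and an NF-κB match at 17 of the other. Serpinb2 also has 2 RefSeq start sites. From the start whose window is not shown, its AP-1 match lay at −181 and its TATAAA at −116. A match describes letters in a window, not a site in use.

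The other genes of the pathway were taken from a list of 45. It was written with earlier results of these data known, so nothing is read from its shares below. Of the 45 genes, 14 had 0 reads in every library. Among these were prothrombin (F2), the fibrinogen chains (Fga, Fgb and Fgg) and plasminogen (Plg), so the substrates of both systems were not detected at this depth, where 0 counts allow up to 0.172 CPM. A further 9 genes had reads but were too low to test, and 22 were tested. With all 6 libraries 0 of 22 were called, and 9 had an unadjusted p under 0.05, against 24.7% of all genes. Groups did not overlap for 11 of 22, 8 lower and 3 higher in αGlu, or 50% against 30.2% of all genes. The median log2 fold change was −0.30, against 0.02 over all genes tested. Without αGlu 1, 13 of 22 were called, 9 lower and 4 higher, or 59.1% against 18.6%, and groups did not overlap for 19 of 22, or 86.4% against 65.8%. DESeq2 was fitted to all 31 pathway genes with reads, but some of them were too low to get an adjusted p. It called 4 on all libraries, Thbs1 higher and F9, Pros1 and Anxa2 lower. The background was 8.16% of the 13707 genes with an adjusted p (4.23% higher and 3.93% lower). The statements on single genes below that say rose or fell rest on the fit without αGlu 1, in which edgeR quasi-likelihood p-values were adjusted over all genes by the Benjamini-Hochberg method.

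**Figure D3:**
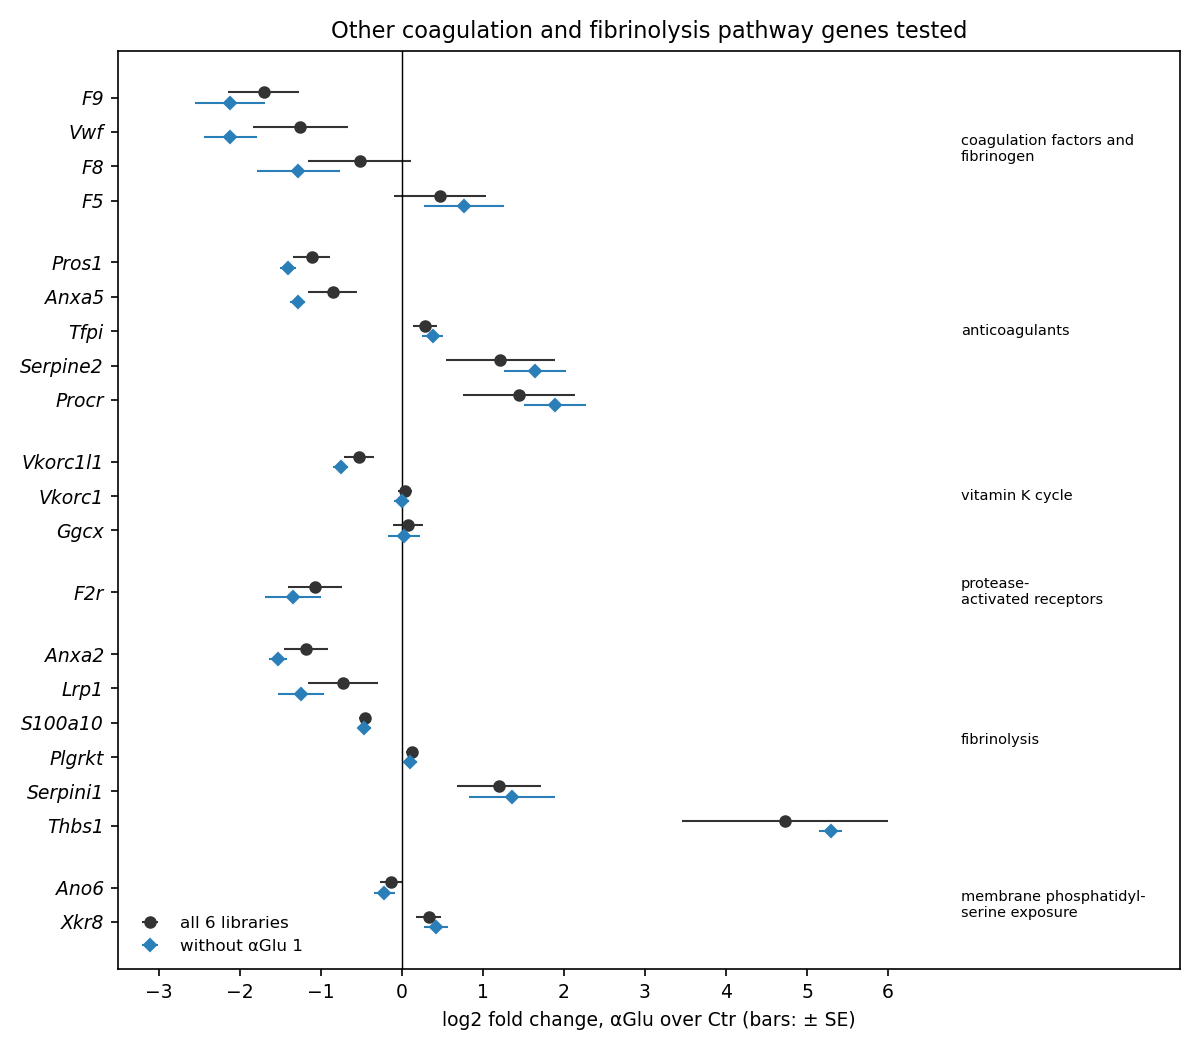
Log2 fold change of αGlu over Ctr for other pathway genes tested, grouped by role, with bars for the SE. Circles use all 6 libraries and diamonds leave out αGlu 1, and Thbs1 at 4.73 and 5.29 lies farthest to the right.

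Among clotting factors, Vwf, which encodes the platelet-tethering von Willebrand factor, stood at 168, 102 and 81.0 CPM in Ctr and 93.6, 30.2 and 23.8 CPM in αGlu, and fell by 2.12 ± 0.33 on the log2 scale (adjusted p 0.00355). With all libraries its log2 fold change was −1.25 ± 0.58 (adjusted p 0.237 in the same edgeR test) and the groups overlapped through αGlu 1. F9, the factor IX gene, stood at 0.545 to 0.794 CPM in Ctr and 0.147 to 0.344 CPM in αGlu. It did not overlap and fell by 2.13 ± 0.43 on the log2 scale, but it passed the filter on low counts only through the Ctr libraries. F8, for factor VIII, was also low and fell by 1.28 ± 0.52, with αGlu 1 at 1.03 CPM above all Ctr libraries. F5, for factor V, had a log2 fold change of 0.77 ± 0.49 and was not called. For F3, the main inhibitor of its complex is tissue factor pathway inhibitor, Tfpi, which stood at 20.5, 19.9 and 25.4 CPM in Ctr and 22.8, 26.2 and 31.0 CPM in αGlu. The groups overlapped, and the F3 to Tfpi ratio in TPM was 0.0672 to 0.196 in Ctr against 0.00511 to 0.00543 in αGlu. These αGlu ratios rest on 1 or 2 reads of F3, below the limit of detection, so their narrow range is not a measure of precision.

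Anticoagulants split by direction. Pros1, which encodes the protein C cofactor protein S, stood at 69.2, 59.2 and 61.9 CPM in Ctr and 40.2, 25.6 and 22.4 CPM in αGlu, without overlap, and fell by 1.41 ± 0.10 on the log2 scale. Anxa5, for the phosphatidylserine-binding annexin A5, fell by 1.29 ± 0.09. It stood at 785, 753 and 716 CPM in Ctr and 628, 305 and 313 CPM in αGlu 1, 2 and 3, without overlap. With all libraries the log2 fold change of Anxa5 was −0.86 ± 0.31 (adjusted p 0.178 in the edgeR test). Procr rose by 1.89 ± 0.38, with αGlu 1 just below the lowest Ctr library. Serpine2, for the thrombin inhibitor protease nexin 1, rose by 1.65 ± 0.38 from 0.556 to 0.908 CPM in Ctr to 2.89 and 1.58 CPM in αGlu 2 and 3. In αGlu 1 Serpine2 stood at 0.401 CPM, below every Ctr library. The vitamin K genes Vkorc1 and Ggcx were not called, and with all libraries their log2 fold changes were 0.04 ± 0.09 and 0.07 ± 0.18. F2r, for the thrombin receptor PAR1, is the next gene to F2rl2 on chromosome 13. It stood at 1.41, 0.961 and 1.25 CPM in Ctr and 0.802, 0.503 and 0.440 CPM in αGlu, without overlap, and fell by 1.34 ± 0.35.

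In fibrinolysis, Thbs1 differed most. It encodes thrombospondin 1, a matrix glycoprotein that binds plasminogen and other proteins. It stood at 12.4, 11.2 and 10.02 CPM in Ctr, 10.4 CPM in αGlu 1, and 479 and 400.2 CPM in αGlu 2 and 3, and rose by 5.29 ± 0.14 on the log2 scale. Like Serpinb2, it left αGlu 1 within the Ctr range. Anxa2, for the annexin A2 part of a plasminogen-binding complex, stood at 1032, 1042 and 916 CPM in Ctr and 622, 362 and 330 CPM in αGlu, without overlap, and fell by 1.53 ± 0.11. Its partner S100a10 stood at 90.6 to 97.8 CPM in Ctr and 66.3 to 72.3 CPM in αGlu, also without overlap, with a log2 fold change of −0.46 ± 0.08 that stayed below the size needed for a call. Lrp1, a receptor that takes up urokinase in complex with its inhibitors, fell by 1.24 ± 0.28. It stood at 2184, 1924 and 1172 CPM in Ctr and 1697, 853 and 641 CPM in αGlu 1, 2 and 3. The Lrp1 groups overlapped through αGlu 1, and with all libraries its log2 fold change was −0.73 ± 0.43. Serpini1, for the neuronal serpin neuroserpin, rose by 1.36 ± 0.53 (adjusted p 0.0856 in the edgeR test). It was low, at 0.636, 0.919 and 0.278 CPM in Ctr and 1.03, 2.11 and 1.06 CPM in αGlu 1, 2 and 3. With all libraries the log2 fold change of Serpini1 was 1.20 ± 0.52 (adjusted p 0.216 in the same test). Plgrkt, for a plasminogen receptor, and the phospholipid scramblase genes Ano6 and Xkr8 were not called, with log2 fold changes of 0.10 ± 0.08, −0.22 ± 0.13 and 0.42 ± 0.15. Vkorc1l1 was not called either, at −0.76 ± 0.09.

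The genes most like each member across the 6 libraries are given as a description of 8367 candidates whose log2 CPM averaged 3 or more, where n is 6 and the points share library and depth. F3 was nearest to Chp1 (Pearson r 0.997) and Nde1 (0.992). F10 was nearest to Atp6v0b (0.999) and Ube2j2 (0.998), and F7 to Zmynd19 (0.968) and Atp6v0a2 (0.963). F2rl2 was nearest to Sdhc (0.9997) and Cs (0.998). Thbd was nearest to Fbxl17 (0.999) and Gpr155 (0.998), Plau to Trappc2 (0.999) and Usp14 (0.997), and Plaur to Tnfrsf21 (0.999) and Slc29a1 (0.998). F13a1 was nearest to Exoc1 (0.978) and Nol9 (0.973). The number of candidates with r above 0.9 ran from 26 for F7 to 1340 for Plaur, so many genes share these courses, and most named genes varied far less in size. Chp1 ranged from 97.7 to 108 CPM over the 6 libraries, whereas Gpr155 ranged from 5.73 to 35.1 CPM. Serpinb2 did not pass the filter and was not compared.

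Markers of further cell types were low in both groups. Neutrophil markers summed to 1.53 to 5.22 CPM in Ctr and 1.50 to 2.92 CPM in αGlu, with Ly6g at 0. Fibroblast markers summed to 1.63 to 7.17 and 1.01 to 2.87 CPM, and mast cell and basophil markers to 1.14 to 2.09 and 0.623 to 3.78 CPM, with Tpsb2 at 0. Dendritic cell markers summed to 1.91 to 2.30 and 1.17 to 1.61 CPM, with Xcr1 at 0, and lymphocyte markers to 0.0835 to 0.136 and 0.183 to 0.315 CPM, with Nkg7 at 0.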

How the data were processed

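The authors made stranded mRNA libraries from total RNA and ran the reads through the QIAGEN portal for RNA-seq analysis. The submitters' processing notes name the build GRCm38. The aligner, the annotation and the treatment of multi-mapping reads are not given in the sources used here. The deposited counts are whole exon reads per gene without normalization and were used for all fits. The deposited TPM values served to compare genes. The deposited RPKM values and a deposited CPM signal column were not used. Each of the 24 value columns could be assigned to a library from its name.

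Genes with few reads were filtered in edgeR 4.0.16 under R 4.3.3 (filterByExpr, at least 10 reads and 15 in total). Libraries were scaled with TMM, and the negative binomial quasi-likelihood test compared the groups without covariates. Two-sided p-values were adjusted by Benjamini-Hochberg over all genes tested. Calls needed an adjusted p below 0.1 together with a log2 fold change above 1 in size. Log2 CPM used a prior count of 2. The script was tested on simulated data. Alternatives were DESeq2 1.42.0, limma-voom (limma 3.58.1), other scalings and filters, the replicate number as a block and each library left out.

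The members, the other pathway genes, the marker lists and the tests were chosen with earlier results of these data known. Named were all members, other pathway genes without overlap and above 1 in log2 fold change, called without αGlu 1 or averaging 5 or more in log2 CPM, and the 2 genes most correlated with each member. Of the remaining pathway genes, F2, Fga, Fgb, Fgg, Plg, F5, Ggcx, Vkorc1, Xkr8, Tfpi and Proz were named after their values had been seen, as were single markers above 0 reads, Iqgap2 and Serpinb10. Promoters came from a RefSeq table. The values of 1 tested pathway gene are not reported here, though the counts include it.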

Additional observations from a re-analysis of the deposited data

How the results depend on the processing

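Results depended most on αGlu 1. Over all genes 0 were called, against 1119 with DESeq2, 17 with the replicate number as a block, and 0 to 2290 when 1 library was left out. Members called numbered 0, against 5 with DESeq2, 0 with the replicate block and 0 to 7 with 1 library left out. Other pathway genes called numbered 0, against 4 with DESeq2, 0 with the block and 0 to 13. The upper ends (2290, 7 and 13) came without αGlu 1, and the cause was not tested. Genes without overlap went from 4 to 7 members and from 11 to 19 other pathway genes without αGlu 1, while the share over all genes went from 30.2% to 65.8%, an alternative chosen after the data had been examined. F13a1 turned sign to 0.45 without Ctr 2, 0.24 without αGlu 2 and 0.05 without αGlu 3, within a range of −1.04 to 0.45. The other 7 members tested kept their direction under every alternative run. A minimum of 1 CPM in 3 libraries left no value for F13a1 or F3. Deviations of libraries with the same number correlated at 0.0764, 0.0646 and 0.154, each above those of other numbers at −0.112 to 0.0459. The labels do not name pairs, although the study used a paired test for the level of the fragment after this transfection. Whether the numbers mark pairs was not settled, so the main fit took none and the block is given as an alternative. The median over all genes was 0.10 when only library size was scaled, against 0.02. F3, F13a1 and, in Ctr, Serpinb2 were limited by depth.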
